A study of Mus musculus with 2 samples.

Results

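The genes described here are 9 core genes of the Hedgehog signalling pathway, chosen by symbol from the 32285 genes measured: the ligand Shh, the receptor Ptch1, the signal transducer Smo, the co-receptors Gas1 and Boc, the ligand-binding inhibitor Hhip, and the transcription factors Gli1, Gli2 and Gli3. Their levels were followed through the cell classes of mouse dorsal skin on postnatal day 3. The control was a single-cell RNA library (10x Single Cell 3′) of genotype Wildtype, and the other library had the genotype miR-200b induced. Both libraries carried the treatment label Dox. Neither the construct that induces the microRNA, nor the cells in which it acts, nor the number of animals in a library is given in the labels. Epidermis and dermis were dissociated separately and their suspensions were mixed, with more dermis than epidermis, before droplet capture. With 1 library per group there is no replicate, so each difference is between these libraries and not a tested effect of genotype, and the intervals cover counting error alone.

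Hedgehog ligands are secreted proteins that bind Ptch1 on a receiving cell. Without ligand, Ptch1 holds Smo inactive and the GLI proteins, Gli3 above all, are processed into repressors. With ligand, Smo is released and activator forms of the GLI proteins switch on target genes, of which Gli1, Ptch1 and Hhip are the most widely used readouts, so their transcript levels report where cells have received the signal. In developing hair follicles Shh comes from epithelial cells at the base of the follicle and acts on the epithelium and on the dermal papilla, the mesenchymal cluster enclosed by the hair bulb.

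The genes lie on 7 chromosomes of the mouse build GRCm38 (GENCODE vM21). Shh spans chr5:28456815-28467256, Ptch1 spans chr13:63508328-63573598, and Gli1 spans chr10:127329882-127341974, all on the minus strand. Smo spans chr6:29735503-29761365 on the plus strand, Gli2 chr1:118834132-119053619 on the minus strand and Gli3 chr13:15463235-15730026 on the plus strand. Hhip spans chr8:79965851-80058006, Gas1 chr13:60174405-60177365 and Boc chr16:44485049-44558897, all on the minus strand.

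2 short sequences are shown, that of the mature microRNA mmu-miR-200b-3p and a stretch of Gli3. Bases 2 to 8 of a microRNA, its seed, pair with target transcripts, and these are in capitals in the mature microRNA (RefSeq, GRCm38.p6). The 7-base match CAGTATT is in capitals in the 3′ untranslated region (UTR) of Gli3, where it begins at base 200 of 3245. The 22 bases printed lie at chr13:15726970-15726991 on the plus strand.
mmu-miR-200b-3p: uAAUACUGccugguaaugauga
Gli3 3′ UTR: tcagtttgaatCAGTATTgtga
Gli3 was the only gene of the 9 whose longest annotated 3′ UTR held this match. Among all 20874 genes with an annotated 3′ UTR, 13.3% held it. A match is a description of the letters and not evidence of a target site.

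The core of the motif bound by GLI proteins, ACCACCC, was searched on both strands of RefSeq promoter windows (250 bases before to 50 after a transcript start, GRCm38.p6). A window was found for 6 of the 9 genes, and Gli2 alone held the motif, on the strand opposite to the one printed, so that the capitals below are its reverse complement. The stretch lies at chr1:119053806-119053835, and the motif begins 205 bases before the transcript start.
Gli2 promoter: atccccctccaGGGTGGTgtccccccaccc
Of all 32851 windows, 4.61% held the motif on either strand. No window was matched for Shh, Gli1 or Boc.

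The deposited matrices held 9072 control barcodes with 100409201 unique molecular identifiers (UMIs, each counting 1 captured RNA molecule) and 9114 induced barcodes with 119705137 UMIs. After filtering and doublet removal 4816 control and 4890 induced cells remained, with medians of 14585 and 17851 UMIs. The libraries shared 74 barcode sequences among all barcodes and 8 among the kept cells. Cell classes were rebuilt here by clustering each library by itself, without the pathway genes, and naming clusters from marker lists. "-like" is meant with every class name. Clusters that stayed unnamed held 28.3% of the control cells and 16.0% of the induced cells. Sebaceous gland cells were named in the control library only (216 cells), and 12 classes held at least 20 cells in both libraries. The markers of each class were measured in it, with 0 or 1 of the list at 0 UMIs in most classes. The exceptions were the induced dermal papilla (2 of 16 markers at 0), the control hair-forming class (5 of 38) and the immune class (15 of 30 and 11 of 30), which pools several immune types.

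Levels are given as CPM, the UMIs of a gene scaled to the same class total (counts-per-million), with exact Poisson 95% intervals. Where 2 values stand together, the control library comes first. The assay captures the 3′ ends of RNA, and values of different genes are not set against each other.

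Shh was found mostly in the hair-forming cells at the core of the follicle. This class pools the marker lists of hair matrix, inner root sheath and hair shaft. Its Shh level was 294 CPM (270.4 to 318) in 73 control cells and 165 CPM (147 to 183) in 90 induced cells. These levels depend on which cells the class holds: over the alternative processings they ran from 119 to 349.7 CPM in the control and from 168 to 269 CPM in the induced library, and their order changed. These cells held 92.4% of the 644 Shh UMIs of the control library and 70.2% of the 466 of the induced library. The next class in order reached 3.29 CPM in the control library (upper hair follicle) and 3.81 CPM in the induced library (outer root sheath). In fibroblasts, dermal papilla, dermal sheath, melanocytes, immune cells and granular epidermis no Shh UMI was counted in either library. The 3 counts that a count of 0 allows correspond to 0.847 CPM in control fibroblasts and to 11.2 CPM in control dermal papilla, the smaller class. The plot of levels by class shows this gap for Shh and more gradual orders for the other genes.

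**Figure D1:**
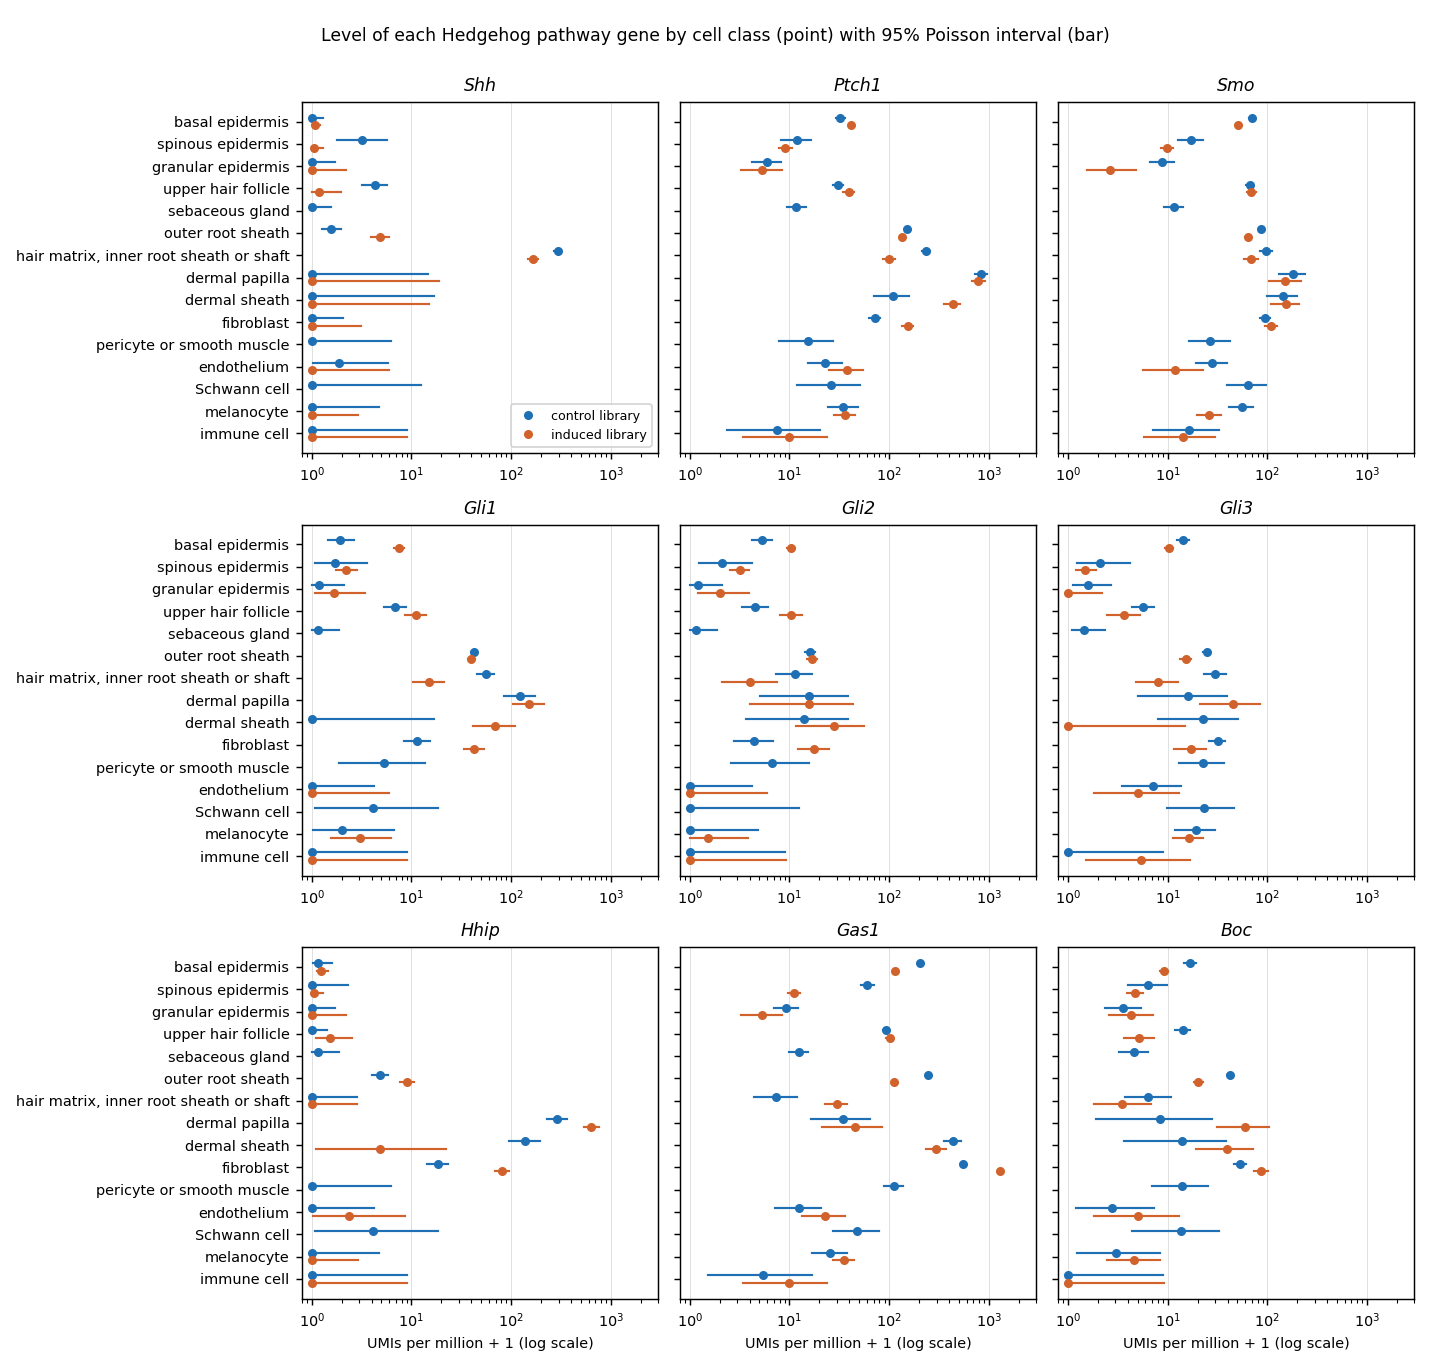
Each panel shows 1 gene, with the level in each cell class on a logarithmic axis of CPM plus 1 (points) and its exact Poisson 95% interval (bars) in the control library (blue) and the induced library (orange). Shh stands far above all other classes in the hair matrix, inner root sheath or shaft class (294 and 165 CPM, an order that changes with the processing), and Ptch1, Gli1 and Hhip are at or near their highest in the dermal papilla.

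Shh was also uneven from cell to cell. In the control library 48 of the 73 hair-forming cells held at least 1 Shh UMI, 35 held 5 or more, and 1 cell held 51. In the induced library 42 of 90 held at least 1, 22 held 5 or more, and the highest held 36. The 10 cells with the most Shh carried 48.0% of the control and 43.4% of the induced Shh UMIs. When every cell was reduced at random to 2000 UMIs (thinned), so that depth was equal, 37.0% (26.0 to 49.1, exact binomial 95% interval, 27 of 73 cells) of the control class and 23.0% (14.6 to 33.2, 20 of 87 cells) of the induced class kept a Shh UMI. These intervals overlap, and the order of the shares was reversed in 3 of 6 alternative processings: 23.6% and 29.6% with doublets kept, 16.6% and 28.2% under a stricter cell filter, and 16.96% and 23.3% at a higher clustering resolution. Immune cells, which should lack the gene, kept none in 26 control and 23 induced cells (at most 11.5% and 13.0% by the 3-count limit), at medians of 17000 and 18929 UMIs against 23190 and 16850 in the hair-forming class. Before thinning the hair-forming shares were 65.8% and 46.7%.

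The composition of the hair-forming class differed between the libraries. In the control library it was a single cluster led by the hair keratin Krt35, with the connective tissue genes Dcn and Fn1 also among its 10 leading genes. The induced library had a cluster of 52 cells led by Krt33a, Krtap8-1 and Krt83, genes of the hair shaft, with Shh at 240 CPM, and a cluster of 38 cells led by Krt25, Krt71 and Tchh, genes of the inner root sheath, with Shh at 84.9 CPM. The summed level of the 38 markers of the class was 3143 CPM in the control and 20987 CPM in the induced cells. Outside the class, 139 Shh UMIs lay in 52 induced cells and 49 in 21 control cells. Of those in the induced library, 70 lay in 19 cells of an unnamed cluster led by Vcan and Gpc3 (21.7 CPM), and 28 lay in 3 cells of a proliferating outer root sheath cluster, 22 of them in 1 cell. Of those in the control library, 28 lay in 9 cells of an upper follicle cluster led by Pinlyp and Car6.

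The other Hedgehog ligands were measured in other cells. Dhh, known as the ligand of Schwann cells, stood at 132 CPM in the 31 control Schwann cells. It was 19.3 CPM in control and 21.8 CPM in induced endothelium. Dhh was at or below 1.5 CPM in each other class with at least 20 cells. Ihh, described in sebaceous glands, reached no more than 0.235 CPM in any class, and no Ihh UMI was counted in the 216 control sebaceous cells.

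Genes that make or release the ligand were spread differently. Scube1 and Scube3 encode secreted proteins that help release lipid-modified ligand. Scube3 was 52.3 CPM in control and 10.1 CPM in induced hair-forming cells, and Scube1 was 45.4 and 2.01 CPM. In dermal papilla Scube1 was 231 and 161 CPM, and Scube3 was 70.7 and 156 CPM (19 and 32 UMIs), past 2-fold higher in a class where 21.2% of all genes were past 2-fold. Hhat, which attaches the palmitate to the ligand, stayed below 10 CPM in every class.

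Ptch1, the receptor and itself a target gene, was highest in the dermal papilla of both libraries, at 833 CPM (728 to 950.0) in 43 control cells and 787 CPM (670.4 to 919) in 83 induced cells. Both intervals lay above those of every other class. In counts summed over a class, fewer expressing cells and less RNA per cell cannot be told apart. By cell, a Ptch1 UMI was kept by 67.4% of the thinned control papilla cells and 56.8% of the 37 induced cells that were deep enough. The induced papilla cells were shallow, with a median of 1766 UMIs against 5844 in the control, and 46 of 83 fell below the thinning depth. Among immune cells 0 of 26 control and 4.35% of 23 induced cells kept a Ptch1 UMI. Before thinning the papilla shares were 93.02% and 62.7%.

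Below the papilla, the order differed between the libraries. In the control library the hair-forming class followed (232 CPM), then the outer root sheath (152 CPM) and dermal sheath (108 CPM), whose intervals overlapped. In the induced library the dermal sheath was second (432 CPM), and fibroblasts (152 CPM) and outer root sheath (132 CPM) overlapped, followed by the hair-forming class (99.2 CPM). Basal epidermis was lower, at 31.4 and 40.6 CPM, and spinous (10.8 and 8.10 CPM) and granular epidermis (4.90 and 4.31 CPM) were among the lowest. Control sebaceous cells had 10.8 CPM. Immune cells, which are not known as Hedgehog-responding cells, had 6.59 and 8.81 CPM from 3 and 4 UMIs, so levels of this size are close to background.

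Within the outer root sheath of the control library Ptch1 ranged from 35.4 CPM in a cluster led by Npnt and Shisa2 to 360 CPM in a cluster of 167 cells led by Col14a1 and Basp1. In the induced library the outer root sheath clusters ranged from 59.3 to 192 CPM, the highest being a proliferating cluster.

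Gli1, the target gene most specific to pathway activity, followed a similar order. It was highest in dermal papilla, at 123 CPM (84.5 to 172) in the control and 152 CPM (103 to 215) in the induced library, where the interval overlapped that of dermal sheath (40.8 to 108.7). Dermal sheath had 0 and 68.8 CPM, hair-forming cells 54.8 and 14.1 CPM, outer root sheath 41.3 and 38.8 CPM, and fibroblasts 10.4 and 41.4 CPM. No Gli1 UMI was counted in endothelium or immune cells of either library, which allows up to 2.64 and 4.08 CPM in endothelium. Control sebaceous cells had 0.156 CPM from 1 UMI.

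Across clusters of at least 20 cells, log2 levels (CPM plus 5) of Gli1 and Ptch1 were high or low together, with a Pearson r of 0.82 over 36 control and 0.85 over 28 induced epithelial clusters, and of 0.84 over 13 control and 0.95 over 10 induced other clusters. The clusters of a library share its depth and free RNA. Of the clusters rich in Shh, the control hair-forming cluster had the most Ptch1 (232 CPM), below both papilla clusters, the induced dermal sheath, a control outer root sheath cluster and a control fibroblast cluster of 47 cells (248 CPM).

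**Figure D2:**
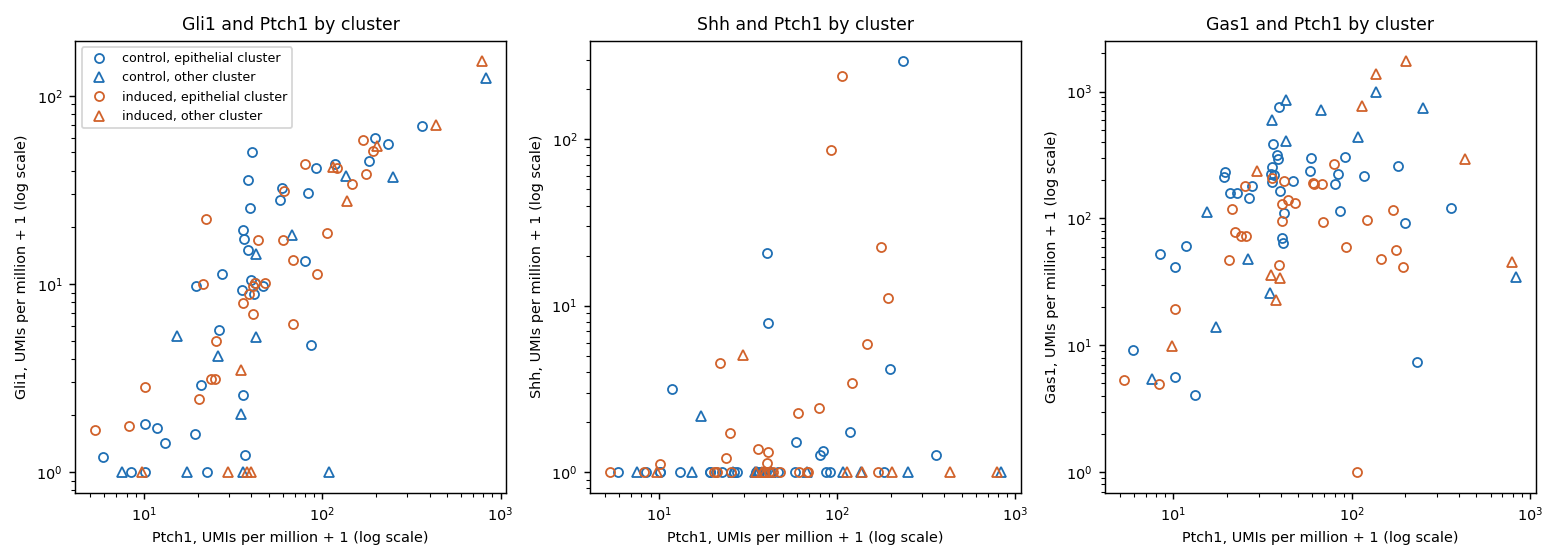
Levels of Gli1, Shh and Gas1 (vertical axes) against Ptch1 (horizontal axes) in clusters of at least 20 cells, in CPM plus 1 on logarithmic axes; circles are epithelial clusters, triangles other clusters, blue control and orange induced. Gli1 climbs with Ptch1, Shh is high in 3 clusters at a Ptch1 level of 92.1 to 232 CPM, and Gas1 is low in the 2 dermal papilla clusters, where Ptch1 is highest.

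Hhip, a membrane protein that binds and sequesters ligand, was measured mainly outside the epithelium, with 77.3% of its control and 64.0% of its induced UMIs in non-epithelial cells. It stood at 290.2 CPM in control and 641 CPM in induced dermal papilla, at 17.5 and 80.5 CPM in fibroblasts, and at 138 and 3.82 CPM in dermal sheath, the latter from 1 UMI. In the outer root sheath it was 3.85 and 8.00 CPM, low per cell but 21.6% and 29.4% of all Hhip UMIs because the class is large. Hair-forming cells had no Hhip UMI in either library, where a count of 0 allows up to 1.48 and 1.51 CPM.

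The co-receptors Gas1 and Boc, which bind ligand on receiving cells and favour signalling, were spread differently from Ptch1. Gas1 was highest in fibroblasts (554 and 1296 CPM), followed by dermal sheath (435 and 294 CPM), outer root sheath (245 and 111 CPM) and basal epidermis (202 and 115 CPM), the last 2 overlapping in the induced library. In dermal papilla it was 33.5 and 44.0 CPM, and in the control hair-forming cells 6.41 CPM. Boc was 52.8 and 85.6 CPM in fibroblasts, 41.7 and 19.3 CPM in outer root sheath, and 5.43 and 2.52 CPM in hair-forming cells. In dermal papilla Boc rested on 2 control and 12 induced UMIs (7.44 and 58.7 CPM). The related co-receptor Cdon was 91.1 and 60.3 CPM in fibroblasts and had no UMI in the dermal papilla of either library. Over the epithelial clusters the r between Gas1 and Boc was 0.85 in the control and 0.52 in the induced library, and that between Gas1 and Ptch1 was 0.29 and 0.26.

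Smo was counted in every class. It was 179 and 152 CPM in dermal papilla, 142 and 153 CPM in dermal sheath, 94.0 and 109 CPM in fibroblasts, 97.2 and 68.0 CPM in hair-forming cells and 69.8 and 49.6 CPM in basal epidermis. It was low in the differentiated epidermal layers, at 7.84 and 1.66 CPM in granular cells.

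Gli2, the main activator among the GLI proteins, stood at 15.1 and 15.9 CPM in outer root sheath, 14.9 and 14.7 CPM in dermal papilla (from 4 and 3 UMIs) and 3.39 and 16.7 CPM in fibroblasts. Gli3, the main repressor, was 30.8 and 16.1 CPM in fibroblasts, 29.1 and 7.05 CPM in hair-forming cells, 23.7 and 14.2 CPM in outer root sheath, and 14.9 and 44.0 CPM in dermal papilla (from 4 and 9 UMIs). Neither was abundant in granular epidermis, where both stayed below 1 CPM.

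To compare the libraries within a class, a gene was compared when it had at least 20 UMIs over both, and it was counted as past 2-fold when the ratio of CPM plus 5 reached 2 in either direction. Of the pairs of a gene and a class, 64 were compared in 11 classes, 8 were past 2-fold higher and 7 past 2-fold lower in the induced library. In single classes among these, 4.05% to 24.7% of all genes were past 2-fold in either direction. The share of all genes compared in a class that were past 2-fold is given beside the counts as its background. For some ratios the alternative processings past 2-fold are counted. Some of these settings keep the same cells and alter only the scaling or the constant added. A smaller constant can only add calls, so these counts overstate how far a call holds when the cells change.

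In fibroblasts the target genes Ptch1, Gli1 and Hhip, the transcription factor Gli2 and the co-receptor Gas1 were higher in the induced library. Ptch1 was 2.15-fold higher (log2 ratio 1.10, 95% interval 0.85 to 1.36), Gli1 3.96-fold (1.99, 1.40 to 2.60), Hhip 4.60-fold (2.20, 1.76 to 2.66), Gli2 4.92-fold (2.30, 1.28 to 3.40) and Gas1 2.34-fold (1.23, 1.14 to 1.31). Of the 8 genes compared, these 5 were past 2-fold higher and 0 were lower, while 5.51% of all 10630 genes compared in fibroblasts were higher and 8.71% were past 2-fold in either direction. Gli3 was lower, at a log2 ratio of -0.93 (-1.59 to -0.32). Smo differed by 0.21 (-0.06 to 0.47). Of 8 alternative processings, some with the same cells, Gli1 was past 2-fold higher in 8, Hhip in 7, Gas1 in 6, and Ptch1 and Gli2 in 5.

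Which cells were named fibroblasts affects this count. Of the control clusters that stayed unnamed, 1 led by Mfap4 and Pth1r had Ptch1 at 135 CPM and Hhip at 94.0 CPM, above the control fibroblast class. Its Gas1 was 993 CPM. Another of these clusters, led by Ndnf and Eln, had Gas1 at 862 CPM and Hhip at 41.7 CPM. These values were also above that class (554 and 17.5 CPM). In the induced library a cluster of 120 cells, with Ndnf, Eln, Twist1 and Twist2 also among its 10 leading genes, was named fibroblast. The Ndnf-led control cluster (77 cells) lay outside the compared class, and whether both clusters hold the same cells was not tested. When all connective cells were pooled (660 control and 433 induced cells, including papilla, sheath, the unnamed clusters, and an Rgs5-led cluster of 52 control and 46 induced cells that was named pericyte or smooth muscle in the control library only), 3 of the 8 genes were past 2-fold higher, against 7.57% of all genes: Ptch1 (103 and 223 CPM), Gli1 (18.5 and 49.4 CPM) and Hhip (43.2 and 111 CPM). Papilla cells were 43 of the 660 and 83 of the 433 cells, and carried 78 of 275 control and 131 of 272 induced Hhip UMIs. Over all non-epithelial cells none of the 8 genes compared was past 2-fold, against 6.87% of all genes, with log2 ratios of 0.51 for Ptch1, 0.74 for Gli1 and 0.68 for Hhip. The mix of cell types in that pool differed, with 239 melanocytes in the induced and 79 in the control library. The summed level of the 10 fibroblast markers was 86255 CPM in control and 42056 CPM in induced fibroblasts, and the part of this difference in the result was not tested.

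In dermal papilla Ptch1, Gli1 and Smo differed by less than counting error, with log2 ratios of -0.08 (-0.38 to 0.22), 0.30 (-0.45 to 1.06) and -0.24 (-0.94 to 0.44). Hhip was 2.21-fold higher in the induced library (1.14, 0.73 to 1.57), in 83 cells against 43. It was the only 1 of 4 genes compared past 2-fold, where 21.2% of all genes were, so the share is near the background. With its 37 deep cells, the induced papilla kept a Hhip UMI in 70.3% (53.0 to 84.1), against 30.2% (17.2 to 46.1) of 43 control cells. Before thinning, with the shallow cells included, the shares were 48.8% in the control and 45.8% in the induced library.

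In dermal sheath, with 37 and 24 cells, Ptch1 was 4.01-fold higher in the induced library (log2 interval 1.37 to 2.69) and Hhip lower (-5.17, -10.52 to -2.59). Gli1 had 0 control and 18 induced UMIs, at least 5.33-fold higher when the control is set to 3 counts. Of 4 genes compared, 1 was past 2-fold higher and 1 lower, where 24.7% of all genes were past 2-fold. Both classes had Acta2 and Tagln among their 10 leading genes, and Mef2c and Mylk were among the leading genes in the control class only, Lrrc15 and Igfbp4 in the induced class only. Whether they hold the same cells was not tested.

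In the hair-forming class the readout genes Gli1 and Ptch1 were lower in the induced library, and Hhip had no UMI in either. Gli1 had 111 UMIs in control and 28 in induced cells, a log2 ratio of -1.96 (-2.61 to -1.35). Ptch1 was at -1.23 (-1.48 to -0.99) and Gli3 at -2.05 (-3.00 to -1.19) on the same scale. These 3 of the 7 genes compared were past 2-fold lower, where 7.06% of all genes were lower and 15.8% were past 2-fold in either direction. Shh itself had a log2 ratio of -0.83 (-1.03 to -0.64). Over 8 alternative processings, some with the same cells, Gli1 was past 2-fold lower in 8, Ptch1 in 7 and Gli3 in 6. The Shh difference (log2 of CPM plus 5) ran from -0.83 to 0.91, so no direction held for Shh.

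Which cells make up the class bears on these values. With the Krt25-led cluster left out, leaving 52 induced cells, the Shh ratio was -0.29 (-0.51 to -0.07), while Gli1 was at -1.63 (-2.44 to -0.91), Ptch1 at -1.13 (-1.45 to -0.83) and Gli3 at -1.43 (-2.51 to -0.49), and 11.2% of all genes were past 2-fold. Gas1 had been past 2-fold higher in the whole class (6.41 and 28.7 CPM), and no Gas1 UMI was counted in the 52 induced cells, so that all Gas1 UMIs of the induced class lay in the Krt25-led cluster (59.0 CPM).

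In the outer root sheath, the largest follicle class, Ptch1 and Gli1 were close between the libraries, with log2 ratios of -0.20 (-0.28 to -0.12) and -0.09 (-0.24 to 0.06). The co-receptors were lower in the induced library, Gas1 at -1.14 (-1.22 to -1.06) and Boc at -1.11 (-1.30 to -0.92), and Gas1 alone of the 9 genes was past 2-fold after adding 5 CPM, where 4.42% of all genes were. Boc was past 2-fold lower in 5 of 7 alternative processings. Shh was low there, at 11 and 61 UMIs (0.550 and 3.81 CPM). Of the 61 induced UMIs, 28 lay in 3 cells of 1 cluster, 22 of them in 1 cell. After adding 5 CPM the log2 ratio of Shh was 0.67. It ran from 0.44 to 2.79 over the alternatives and was past 2-fold higher in 5 of 7. Without the added constant Hhip had a log2 ratio of 1.06 (0.64 to 1.48) from 77 and 128 UMIs.

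In basal epidermis no gene was past 2-fold by this rule, and Gli1 was low in both libraries. It had 11 UMIs in 624 control cells (0.921 CPM) and 261 in 1680 induced cells (6.54 CPM), a 7.10-fold difference (log2 2.83, 1.96 to 3.85). With other choices of cells the control level ran from 0.385 to 2.29 CPM and the induced level from 5.04 to 6.84 CPM. A cluster led by Fst was named basal in the induced library (204 cells) and stayed unnamed in the control (190 cells). Whether both hold the same cells was not tested. Another unnamed control cluster, with Fst among its 10 leading genes (100 cells), had Gli1 at 9.08 CPM. In the induced library melanocytes had 2.05 CPM and granular cells 0.663 CPM. Gli2 was 4.36 and 9.37 CPM in basal cells, and Ptch1 31.4 and 40.6 CPM. With 5 CPM added, 0 of the 7 genes compared were past 2-fold, against 4.05% of all genes, because Gli1 and Gli2 lie near the added constant. Among the induced basal clusters, a cluster of 175 cells was led by the stress response genes Nfkbia and Atf3. A control basal cluster of 36 cells also had Nfkbia among its 10 leading genes. In the basal clusters with Igfbp2 among their 5 leading genes, 2 in each library and the control ones led by H19, Gli1 had 3 UMIs in 418 control cells and 73 in 565 induced cells (0.385 and 5.04 CPM). There Gas1 was past 2-fold lower (217 and 84.2 CPM), 1 of 7 genes compared, against 4.84% of all genes. Over all basal cells Gas1 had a log2 ratio of -0.81 (-0.88 to -0.74) and Boc of -0.95 (-1.22 to -0.69).

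In the remaining classes few of the genes were past 2-fold. Gas1 was lower in spinous epidermis (59.5 and 10.1 CPM), 1 of 6 genes compared, against 9.5% of all genes. Smo was lower in endothelium (27.2 and 10.9 CPM, from 31 and 8 UMIs), 1 of 3 compared, against 13.3%, and stayed past 2-fold in 4 of 7 alternatives. None was past 2-fold in upper hair follicle (8 compared, 5.21% of all genes), granular epidermis (4 compared, 19%) or melanocytes (4 compared, 5.11%), and in immune cells none reached the count to be compared. With 5 CPM added, Boc came near 2-fold in the upper hair follicle (13.3 and 4.21 CPM, from 113 and 24 UMIs). It was past 2-fold lower there in 6 of 7 alternative processings. The clusters of that class were unlike: 119 of 341 control cells lay in 1 led by Hspa1a and Cxcl10. In the induced class 57 of 233 cells lay in 1 led by Wfdc18, while a Wfdc18-led control cluster of 87 cells stayed unnamed. The upper follicle values moved with the processing: over the 7 alternatives the lowest log2 ratio was -1.23 for Ptch1, -1.17 for Smo and -1.48 for Gas1, against 0.32, 0.05 and 0.11 in the processing reported. Smo in melanocytes had a log2 ratio of -0.98 and was past 2-fold lower in 4 of 7 alternatives. Over all epithelial cells, none of the 9 was past 2-fold with 5 CPM added, against 3.93% of all genes. This group does not depend on class names but holds the classes in unlike shares. Without the added constant Boc had the lowest ratio, with 22.6 and 8.82 CPM and a log2 ratio of -1.36 (-1.47 to -1.24). Gas1 was 156 and 85.5 CPM (-0.87, -0.91 to -0.83).

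**Figure D3:**
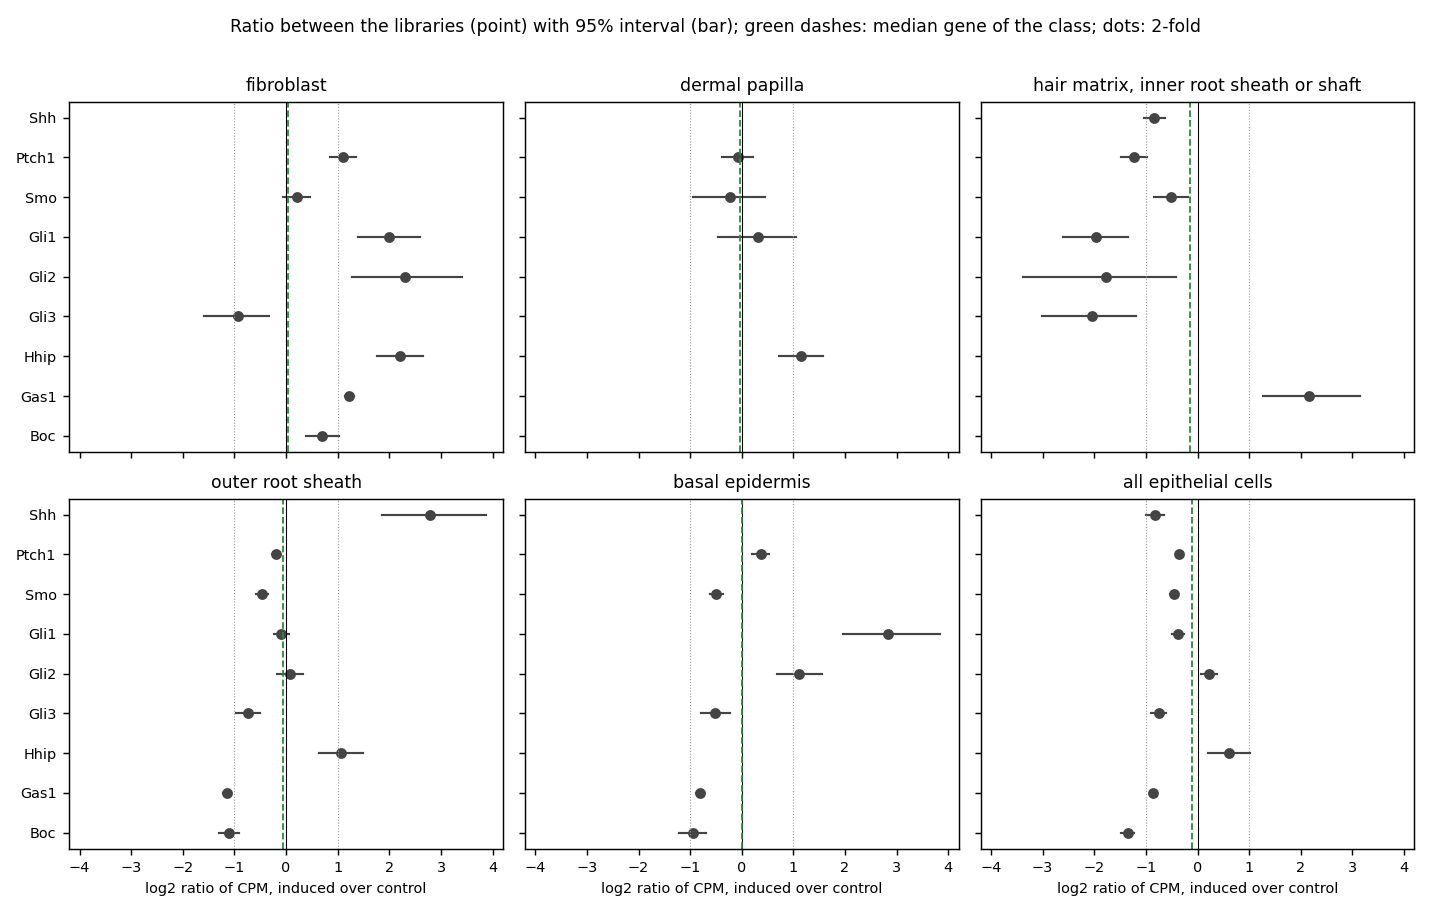
Log2 ratio of the CPM, induced over control, for each gene compared in 5 classes and over all epithelial cells (points), with the exact conditional binomial 95% interval (bars), the median gene of the class (green dashes) and 2-fold (dotted lines). Ptch1 and Gli1 lie to the right in fibroblasts (1.10 and 1.99). They lie to the left in the hair matrix, inner root sheath or shaft class (-1.23 and -1.96). Gas1 and Boc lie to the left in outer root sheath, basal epidermis and all epithelial cells. No constant was added for the points, so a point beyond a dotted line need not be past 2-fold by the rule of the text.

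Gli3, the gene with the microRNA-200b seed match shown above, was lower in the induced library in 6 of the 6 classes in which it was compared, with intervals below 0 in 4. In dermal papilla, with too few UMIs to be compared, its levels were 14.9 CPM in control and 44.0 CPM in induced cells, with overlapping intervals. Its log2 ratio was -0.75 over all epithelial cells (-0.89 to -0.61) and -0.75 over all other cells (-1.14 to -0.37). Smo, with no match, was lower in 8 of 11 classes compared, with intervals below 0 in 7, and had -0.46 (-0.52 to -0.40) over all epithelial cells. The pathway list used here has 45 genes, the 9 included, and 8 of them held the match. Of the 6 of these with enough UMIs in epithelial cells, all 6 were lower there: Gli3, Bcl2 (-1.90, -1.99 to -1.81), Cdon (10.6 and 5.33 CPM), Mycn (-0.84, -0.95 to -0.74), Gpr161 (-0.81, -1.02 to -0.60) and Btrc (-0.46, -0.61 to -0.32). Of the 41 list genes compared there, 30 were below 0, against 54.3% of all genes, and their median difference (log2 of CPM plus 5) was -0.30, against -0.02 for all genes. Sfrp1, with no match, was 66.8 and 17.7 CPM. In non-epithelial cells Gli3 and Cdon (42.3 and 19.6 CPM) were lower, while the intervals of Bcl2, Btrc, Mycn and Gpr161 held 0. Whether the match has a part in these differences was not tested.

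Beyond the 9 genes, the list adds ligands, release factors, cilium genes, regulators and target genes. Of its genes compared, 8 of 34 were past 2-fold higher and 0 lower in fibroblasts (8.71% of all genes in either direction), and 3 of 33 were higher and 8 lower in the hair-forming class (15.8%). In the outer root sheath 1 of 39 was higher (Scube2, 2.85 and 12.9 CPM) and 3 lower, against 4.42% of all genes in either direction: Gas1, Bcl2, an inhibitor of cell death (96.6 and 32.6 CPM), and Sfrp1, a secreted Wnt inhibitor (230.3 and 58.7 CPM). In basal epidermis 1 of 36 was higher and 1 lower (Cdon, 31.2 and 8.69 CPM), near the 4.05% of all genes. The negative regulator Sufu was never past 2-fold in the 9 classes compared. Mycn, a target in growing follicle epithelium, was 72.0 and 53.9 CPM in hair-forming cells and 47.1 and 42.7 CPM in outer root sheath.

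The readout genes were also counted in cells with and without Shh. In thinned hair-forming cells of the control library Ptch1 was kept by 44.4% of 27 cells with a Shh UMI (25.5 to 64.7) and 32.6% of 46 cells without (19.5 to 48.0). In the induced library it was kept by 10.0% of 20 (1.23 to 31.7) and 22.4% of 67 (13.1 to 34.2). Gli1 was kept by 11.1% and 10.9% in the control library, and by 0 of 20 (up to 15% allowed) and 2.99% of 67 in the induced library. The intervals of the differences all held 0, the Ptch1 difference running from -12.6 to 35.9 percentage points in the control and from -27.1 to 11.2 in the induced library. A second random thinning gave the induced Ptch1 difference the other sign (12.5). Without thinning, Gli1 was in 64.6% of 48 control cells with and 32.0% of 25 without a Shh UMI, a comparison in which the depth of the cell acts on both genes.

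The genes with the pattern most like a given gene were taken as the 5 with the highest Pearson r of log2 levels over 27 sums of a class in a library, among 13141 genes. For Shh these were Gm49425 (r = 0.97), Krt35 (0.97), Krt31 (0.94), Krt87 (0.92) and Sp5 (0.92). Of these, 3 are hair keratins, and all 5 were highest in the hair-forming class. Krt35 and Krt31 were also on the marker lists that named this class, so their likeness to Shh follows in part from the naming. For Gli1 they included Ptch1 (0.91), Nyap1 (0.86), Cpxm1 (0.85) and Cdkl3 (0.85). For Ptch1 they were Gli1 (0.91), Dipk1b (0.88), Mbtps1 (0.88), Slc37a3 (0.87) and Cpxm1 (0.87). These partners of Gli1 and Ptch1 were all highest in dermal papilla. The 27 sums share 2 libraries, so these values describe likeness only.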

How the data were processed

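The deposited values were raw counts of UMIs per gene and barcode, made by the authors with Cell Ranger 6.0.0 on mm10, per the file headers and the submitters' processing notes. Barcodes with at least 1000 UMIs, 500 genes and under 15% mitochondrial UMIs were kept, and the 7% with the highest Scrublet scores (362 control, 368 induced) were removed because the automatic threshold marked only 3 and 1 barcodes. Each library was clustered by itself (scanpy 1.11.5, 2000 variable genes, 30 components, 15 neighbours, Leiden resolution 2.0 for epithelial and 1.0 for other cells) without the pathway genes. Clusters above 5000 CPM of summed keratins were epithelial. A name needed 3 markers and 30% of 1 of 25 lists, detected in 25% of cells and raised 1.5-fold. Ratio intervals are exact conditional binomial. The ratio steps were tested on simulated Poisson counts, the error that the intervals assume, so uneven counts between cells were not tested. Doublets, cell filter, resolution, joint clustering, scaling, pseudocount, UMI minimum and thinning were varied.

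The members and lists were chosen with earlier results of these data known, and the rules that separate and name clusters were chosen after looking at these cells. The named genes are all 9 members, pathway list genes of at least 5 CPM in a compared class, the 5 most alike genes and cluster-leading genes; Ihh falls outside this rule and was added, after its values were seen, as the remaining ligand. Protein sequences were not used here. Results for 1 gene of the pathway list are not reported here.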

Additional observations from a re-analysis of the deposited data

Results flagged for a closer look

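The difference between the libraries, as log2 of CPM plus 5, was past 2-fold in opposite directions in different classes for Ptch1, Gli1, Hhip and Gas1. How often other genes do this was not counted, and in a single class 4.05% to 24.7% of all genes were past 2-fold. The differences between classes were not tested, because each group has 1 library. Ptch1 was higher in the induced library by 1.96 in dermal sheath and 1.05 in fibroblasts, and stood at -1.19 in the hair matrix, inner root sheath or shaft class. Gli1, the other main readout of Hedgehog signalling, was at 1.59 in fibroblasts and -1.65 in the hair matrix, inner root sheath or shaft class. Hhip, the ligand-binding inhibitor, was at 1.13 in dermal papilla and 1.93 in fibroblasts, and at -4.02 in dermal sheath, where the induced value rests on 1 UMI. Gas1, the co-receptor, was at 1.22 in fibroblasts and 1.56 in the hair matrix, inner root sheath or shaft class, and at -1.11 in outer root sheath and -2.09 in spinous epidermis. The value of 1.56 turned negative in several alternative processings (range -2.96 to 2.16). It was past 2-fold higher in 3 of 8, all of which kept the same cells.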

How the results depend on the processing

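No paired analysis was possible because each group has 1 library, and for the same reason no library could be left out. The cause of each change below was not tested beyond the cells or constants that the setting itself alters. In fibroblasts 5 of the genes were past 2-fold higher, and 3 were with doublets kept, at a higher clustering resolution, with the libraries clustered together, or with all connective cells pooled. In the hair matrix, inner root sheath or shaft class the count higher went from 1 to 0 in these first 3 settings, under a stricter cell filter and without the Krt25-led cluster, and the count lower from 3 to 5 under the stricter filter and at the higher resolution. There the Gas1 difference reversed, to -0.46 with doublets kept, -2.96 under the stricter filter, -1.06 with joint clustering and -1.19 without the Krt25-led cluster. Pairs of a gene and a class past 2-fold lower went from 7 to 13 with 1 or 0 CPM added or under the stricter filter, and to 11 at the higher resolution or with joint clustering. Pairs past 2-fold higher went from 8 to 14 with 0 CPM added. The share of all gene and class pairs past 2-fold was not counted under these settings. For the pathway list the pairs higher went from 19 to 30 with 0 CPM added, 34 without the UMI minimum and 10 with joint clustering, and the pairs lower from 25 to 38 and 48 with 1 and 0 CPM added. The Shh level of the class in the control library, 294 CPM, was 185 with doublets kept, 119 under the stricter filter, 122 at the higher resolution and 349.7 with joint clustering. In the induced library, 165 CPM became 233 with doublets kept, 228 under the stricter filter, 269 with joint clustering and 240.1 without the Krt25-led cluster. Its share of the Shh UMIs was 95.9% and 87.1% in the control library under the stricter filter and joint clustering, and in the induced library 51.4% with doublets kept, 51.7% under the stricter filter and 59.4% with joint clustering. Ptch1 in induced dermal papilla was 538 CPM under the stricter filter, which left 33 cells. The Gli1 share with minus without a Shh UMI was 32.6 percentage points in the control library without thinning, and that of Ptch1 was 12.5 in the induced library with a second random thinning. The pooling, the selection of basal clusters with Igfbp2 among their 5 leading genes, the omission of the Krt25-led cluster and the second thinning were chosen after seeing the data. Dividing by the median gene of the class changed none of the 64 ratios by the measure used. Low counts limit Gli2, Gli3 and Boc in dermal papilla.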
